A study of Sus scrofa with 12 samples.

Results

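The genes described here encode parts of the proteasome, the ubiquitin-conjugating enzymes and the ubiquitin-specific proteases of pig blood cells. They were chosen by symbol, as every measured gene whose symbol starts with PSMA, PSMB, PSMC, PSMD, PSME, PSMF or PSMG, with UBE2, or with USP and a digit. The symbol USP9Y was left out by rule. This gave 66 of the 7480 genes, 22 with a PSM symbol, 21 with a UBE2 symbol and 23 with a USP symbol. All 66 symbols were found in the pig gene tables, and 65 of them were placed on a chromosome of Sscrofa11.1. The symbol PSMC3IP belongs to a recombination factor that binds a proteasome subunit and is not itself a part of the proteasome. It has a role of its own here, but counts and medians of the 66 genes and of the 22 PSM symbols include it. The deposited values hold no gene under the symbols PSMB8, PSMB9, PSME1, PSME2, PSME3, PSMF1 and UBE2L6, so that PSMB10 and PSMB11 stand alone for the immunoproteasome.

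The proteasome degrades proteins that carry ubiquitin. Its 20S core is a barrel of alpha and beta rings, its 19S caps recognise, unfold and feed in the substrate, and cells exposed to interferon gamma exchange the catalytic beta subunits for the immunoproteasome subunits, which favour peptides for display to T cells. Ubiquitin is activated by an E1 enzyme, passed to an E2 (the UBE2 genes) and placed on the target with the help of an E3 ligase, and it is cut off again by deubiquitinating enzymes, of which the ubiquitin-specific proteases (USP genes) are the largest family. Related E2 enzymes and proteases handle ubiquitin-like proteins such as NEDD8 and the interferon-induced ISG15.

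The 12 libraries were labelled as peripheral blood mononuclear cells (PBMC) of Duroc × Landrace × Yorkshire piglets, with 4 libraries in each of 3 groups. These were untreated controls, a group treated with Salmonella (Salmonella Typhi in the design text), and a group given both Salmonella and the miR-124 sponge, a synthetic oligonucleotide meant to bind the microRNA miR-124. Collection was 12 h after treatment, and 20 healthy piglets aged 4 weeks (10 male, 10 female) gave blood, but the text leaves unclear whether animals or isolated cells were treated. Titles of the sponge group read miR-124 without the word sponge, and no group had the sponge alone. Libraries are not tied to animals in the labels, so every p-value reflects the spread between libraries alone, and that spread may be technical.

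The deposited values were taken as log2 units, and the depth behind them is unknown. Medians per library ran from 5.11 to 5.31, and the correlation across genes between libraries of 1 group was between 0.953 and 0.987. A set of 189 genes taken as silent in blood, such as olfactory receptor genes (54 of the 189 are in the pig tables), had a 95th percentile of 5.25, and a group mean under this background makes the size of a difference uncertain. All 3 group means of 13 of the 66 genes lay below it, and at least 1 group mean of 26. Ties set the sponge plus Salmonella columns apart: 65.1% to 71.4% of their values recur at another gene of that column, against at most 0.0802% elsewhere. In each of these columns 32 to 37 of the 66 genes held such a value. Treatment with the sponge and this column type cannot be told apart. PSMB6 had the same value in control replicates 2 and 4 (12.09), and PSMD12 in control replicates 1 and 4 (8.63). Median differences over all genes were -0.02 between Salmonella and control, -0.04 between sponge plus Salmonella and Salmonella, and -0.07 between sponge plus Salmonella and control, and centring each library on its median moved the last to -0.20.

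**Figure D1:**
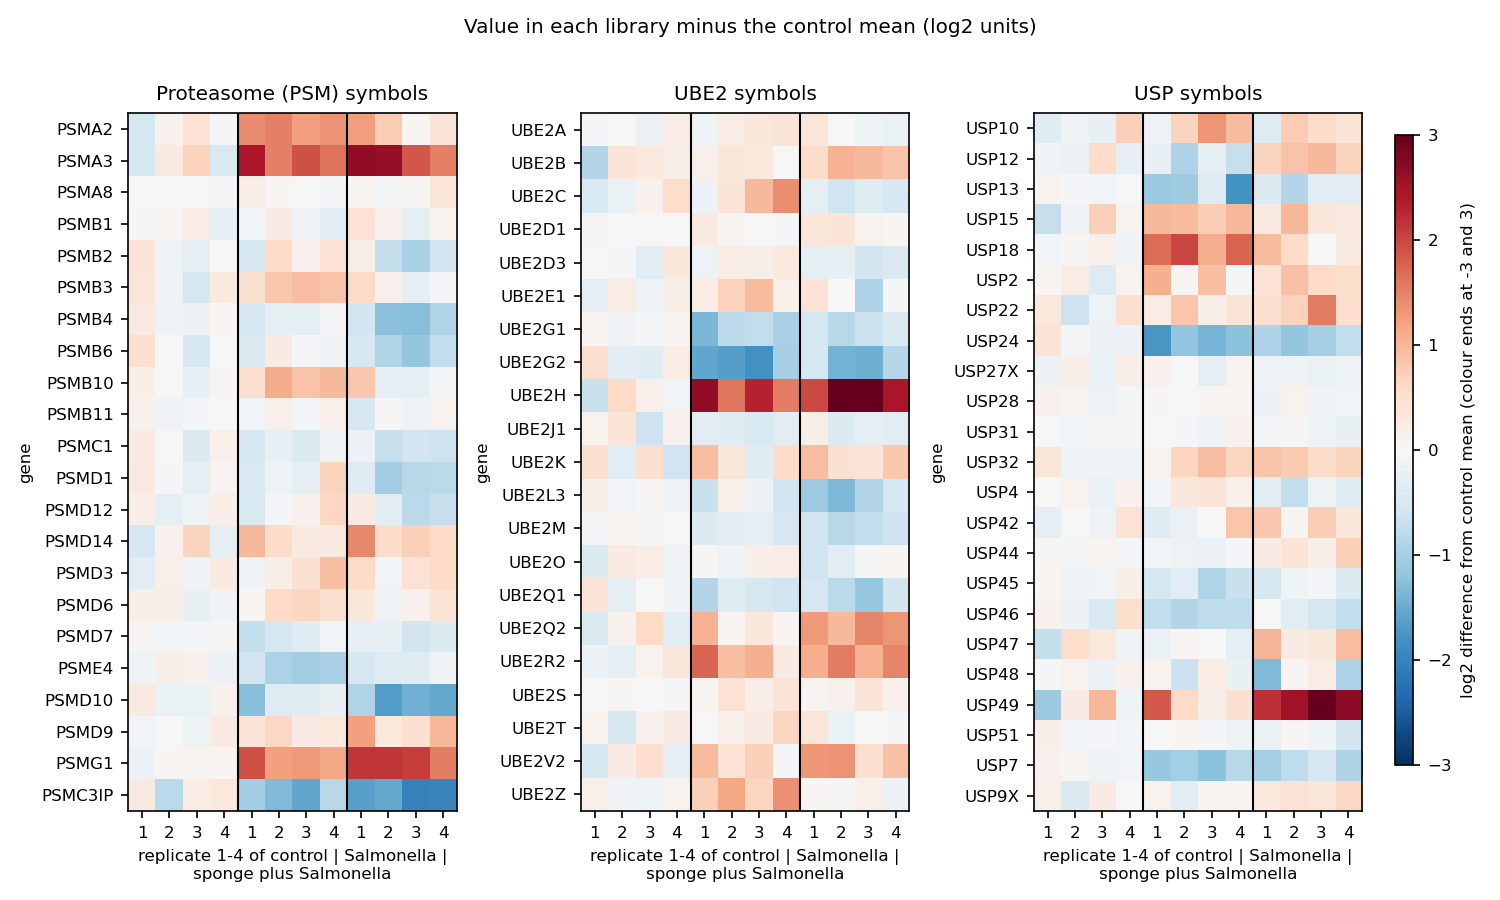
Each row is 1 of the 66 genes and each column 1 library, and the colour gives the value of that library minus the control mean of the gene in log2 units (red higher, blue lower, with the scale ending at -3 and 3). PSMA3, PSMG1 and UBE2H are red in all 8 treated libraries, and UBE2G2, USP7 and USP24 are blue in all 8.

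The first question was which of these genes differ after Salmonella treatment. The alpha ring genes PSMA2 and PSMA3, the assembly chaperone gene PSMG1, the immunoproteasome subunit PSMB10 and the ISG15 protease USP18 rose, while the activator gene PSME4, the E2 genes UBE2G1 and UBE2G2 and 5 USP genes fell. Of the 66 genes 24 were called (36.4%), 12 higher and 12 lower, where 33.6% of all genes were called, 15.7% higher and 17.9% lower. A call is an adjusted p below 0.05 in the limma fit across all genes. For 25 of the 66 genes (37.9%) all Salmonella values lay on one side of all control values, against 35.6% of all genes; 11 of them were higher and 14 lower, against 15.7% and 19.9%. Both shares are near those of all genes. With only genes of a mean above the background level tested, 7 of 48 were higher and 10 lower, against 908 and 1007 of 3690. In that fit a smaller share of the 48 was called than of the 3690. The median difference of the 66 was 0.07 log2 units, and 10 of the 24 called genes changed by at least 1 unit. Over all genes 1175 were called higher and 1338 lower, or 965 and 1778 after each library was centred on its median.

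Among the alpha ring genes, whose products form the gated entry of the core, PSMA3 and PSMA2 were both higher with Salmonella. PSMA3 (chromosome 1, 187342231 to 187371149) stood at 5.57, 6.37, 6.79 and 5.63 log2 units in control replicates 1 to 4 and at 8.53, 7.62, 8.01 and 7.72 in the Salmonella libraries. Every Salmonella value exceeded every control, and the difference was 1.88 ± 0.32 (SE, adjusted p = 0.000514), a 3.67-fold rise. PSMA2 (chromosome 18, 51909399 to 51919859) had control values of 6.50, 7.15, 7.47 and 6.98 and Salmonella values of 8.44, 8.54, 8.26 and 8.36. Every Salmonella library lay above every control library, and PSMA2 rose by 1.38 ± 0.25 (SE, adjusted p = 0.000796). In both genes control replicate 1 was the lowest control. The third alpha gene, PSMA8, which encodes a testis form, lay below the background in every library, between 4.26 and 4.68.

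The beta ring of the ordinary core holds the cutting sites. Of its 5 measured genes 1 rose, 0 fell and 4 were not called, beside 15.7% of all genes higher and 17.9% lower. Their median difference was -0.07. PSMB3 (chromosome 12, 23347060 to 23357616) was the riser, from 11.71, 11.22, 10.81 and 11.62 in control to 11.79, 12.18, 12.26 and 12.19 in Salmonella libraries. The difference was 0.76 ± 0.22 (SE, adjusted p = 0.0137), and Salmonella replicate 1 stood below the other 3 but above the highest control. PSMB1 (-0.07 ± 0.17), PSMB2 (0.16 ± 0.26), PSMB4 (-0.29 ± 0.18) and PSMB6 (-0.09 ± 0.21) were not called, with adjusted p between 0.228 and 0.788. PSMB6 encodes a catalytic subunit, which the immunoproteasome replaces. PSMA8 and these 4 were chosen after their values were seen, as were all further genes below that the naming rule in the processing section does not cover.

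The immunoproteasome was represented by PSMB10, the subunit that takes the place of the trypsin-like site of the ordinary core. PSMB10 (chromosome 6, 28544910 to 28547609) had values of 12.74, 12.55, 12.29 and 12.56 in control and 13.02, 13.66, 13.39 and 13.51 in Salmonella libraries. All 4 Salmonella libraries lay above all controls, and the rise was 0.86 ± 0.22 (SE, adjusted p = 0.00838), or 1.81-fold. PSMB11 (chromosome 7, 76005609 to 76006728), which encodes the catalytic subunit of the thymus proteasome, lay below the background in all libraries, from 4.08 to 4.74, and differed by 0.04 ± 0.12 (SE, adjusted p = 0.835). In the same libraries interferon-stimulated genes had mean levels of 6.75 to 7.51 in control, 10.96 to 11.87 in Salmonella and 8.10 to 9.78 in sponge plus Salmonella libraries. All 17 of 32 listed that were measured were called higher with Salmonella, and their part in the result was not tested.

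The 19S cap binds and unfolds the substrate. Of its 6 measured non-ATPase subunits 0 rose and 1 fell, beside 15.7% of all genes higher and 17.9% lower. The 1 measured ATPase gene, PSMC1, was not called (-0.33 ± 0.17 SE, adjusted p = 0.149). PSMD7 (chromosome 6, 17047420 to 17057170), the inactive partner of the cap's own deubiquitinase, fell by 0.43 ± 0.15 (SE, adjusted p = 0.0436), from 9.95, 9.77, 9.81 and 9.90 to 9.12, 9.33, 9.50 and 9.77. The call of PSMD7 ended without Salmonella replicate 1, 2 or 3 or control replicate 1, 2, 3 or 4 (adjusted p from 0.0625 up to 0.126) and with the 2 groups fitted alone (adjusted p = 0.053). PSMD14, which encodes that deubiquitinase, differed by 0.52 ± 0.27 (SE, adjusted p = 0.156) and PSMD6 by 0.45 ± 0.18 (SE, adjusted p = 0.0703), and neither was called. PSMD14 was called without control replicate 3 (adjusted p = 0.0418). PSMD6 was called without Salmonella replicate 1 (adjusted p = 0.0251). PSMC1 was called without control replicate 3 (adjusted p = 0.0444) and with quantile normalization (adjusted p = 0.0374).

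PSME4 encodes PA200, an activator that opens the core without ATP. PSME4 (chromosome 3, 87231510 to 87337709) had 9.91, 10.22, 10.17 and 9.85 in control and 9.46, 9.09, 8.99 and 9.05 in Salmonella libraries. The Salmonella values were all lower than the lowest control, with a difference of -0.89 ± 0.16 (SE, adjusted p = 0.000565). PSMG1 encodes a chaperone that helps to build the alpha ring. PSMG1 (chromosome 13, 202762509 to 202775601) went from 4.93, 5.16, 5.18 and 5.16 to 7.03, 6.34, 6.39 and 6.27. There was no overlap, Salmonella replicate 1 was the highest, and the rise was 1.40 ± 0.23 (SE, adjusted p = 0.000361), with the control mean of 5.11 just below the background. The chaperone genes of the 19S base, PSMD9 (0.39 ± 0.18 SE, adjusted p = 0.111) and PSMD10 (-0.56 ± 0.24 SE, adjusted p = 0.083), were not called. PSMD9 was called with the 2 groups fitted alone (adjusted p = 0.0216), and all its group means lay below the background. PSMD10 was called with median centring (adjusted p = 0.0472). PSMC3IP (chromosome 12, 20244243 to 20250151), the recombination factor, fell from 6.85, 5.76, 6.79 and 6.89 to 5.52, 5.24, 5.01 and 5.73, a difference of -1.19 ± 0.28 (SE, adjusted p = 0.004) in which control replicate 2 was far below the other controls and still above every Salmonella library.

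**Figure D2:**
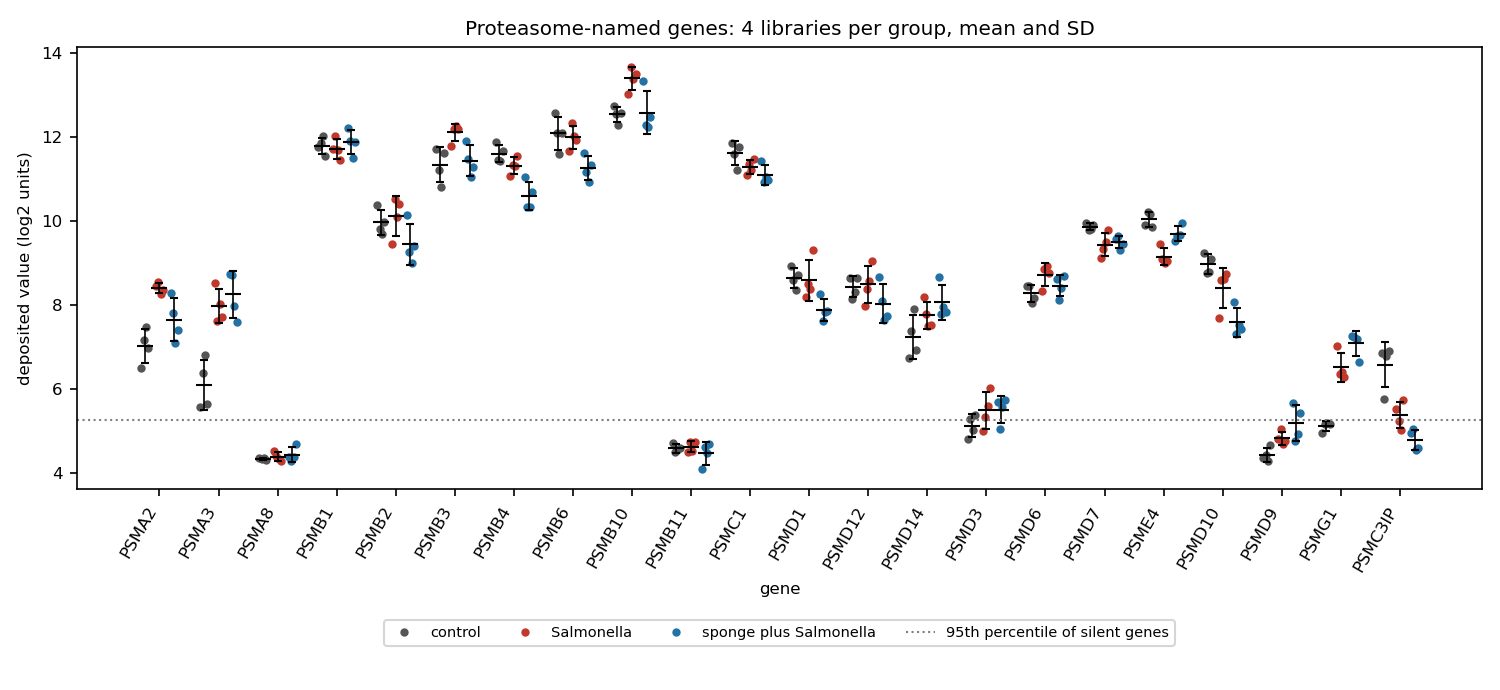
Points are the 4 libraries of each group for the 22 PSM symbols in log2 units, with the group mean and SD in black and the 95th percentile of silent genes as a dotted line. PSMA2, PSMA3 and PSMG1 are higher in all Salmonella libraries than in all controls, PSME4 and PSMC3IP are lower, and PSMA8 and PSMB11 lie under the line.

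Of 21 ubiquitin-conjugating enzyme genes 4 were called higher and 4 lower, near the 15.7% and 17.9% of all genes, with a median of 0.21 against -0.02. UBE2H, an E2 that works with the CTLH ligase complex, showed the largest rise of the 66 genes. UBE2H (chromosome 18, 18819612 to 18932909) had 3.83, 5.11, 4.65 and 4.42 in control and 7.16, 6.10, 6.82 and 6.04 in Salmonella libraries. All Salmonella values were above all controls, and the difference was 2.03 ± 0.38 (SE, adjusted p = 0.00104), though all controls lay below the background and the 4.09-fold size is uncertain. UBE2Z, which takes ubiquitin from the E1 enzyme UBA6, rose by 0.97 ± 0.18 (SE, adjusted p = 0.000773) with no overlap (chromosome 12, 25122072 to 25141144). UBE2R2, an E2 of cullin-RING ligases, rose by 0.99 ± 0.27 (SE, adjusted p = 0.0122) (chromosome 10, 32894424 to 33014473). Its Salmonella values of 6.20, 5.35, 5.52 and 4.69 overlapped the control values of 4.28, 4.17, 4.56 and 4.79. Control means of both genes lay below the background. The 4th riser was UBE2S, which extends chains for the anaphase-promoting complex, with 0.27 ± 0.10 (SE, adjusted p = 0.048), and all 3 of its group means were below the background. The call of UBE2S ended without Salmonella replicate 2, 3 or 4 or control replicate 1, 2, 3 or 4 (adjusted p from 0.06 up to 0.125) and without the variance trend (adjusted p = 0.0736) and with median centring (adjusted p = 0.196) and with quantile normalization (adjusted p = 0.0554).

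The falls among the E2 genes included both members of the UBE2G pair. UBE2G2, which serves the degradation of misfolded proteins of the endoplasmic reticulum, had 10.20, 9.37, 9.35 and 9.94 in control and 8.15, 8.05, 7.91 and 8.72 in Salmonella libraries (chromosome 13, 207444529 to 207471826). No Salmonella library reached the lowest control, and the difference was -1.51 ± 0.26 (SE, adjusted p = 0.000473), the deepest fall of the 66 genes. UBE2G1 had 8.64, 8.46, 8.53 and 8.66 against 7.20, 7.80, 7.83 and 7.59 (chromosome 12, 50258037 to 50368621). It fell by 0.97 ± 0.17 (SE, adjusted p = 0.000671) on the log2 scale, again with no overlap. UBE2J1, another E2 of the endoplasmic reticulum, was not called (-0.37 ± 0.20 SE, adjusted p = 0.165). UBE2J1 was called without control replicate 3 (adjusted p = 0.0173). UBE2Q1 (-0.58 ± 0.20 SE, adjusted p = 0.0386) and UBE2M, the E2 for NEDD8 (-0.38 ± 0.12 SE, adjusted p = 0.0251), were also lower. The call of UBE2Q1 ended without Salmonella replicate 1, 3 or 4 or control replicate 1, 3 or 4 (adjusted p from 0.0572 up to 0.128). The call of UBE2M ended without Salmonella replicate 1 or 4 or control replicate 2 or 4 (adjusted p from 0.0502 up to 0.0701). Neither UBE2C (0.64 ± 0.32 SE, adjusted p = 0.134) nor UBE2T (0.26 ± 0.24 SE, adjusted p = 0.444) was called. UBE2C was called without Salmonella replicate 1 (adjusted p = 0.0276).

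Among the ubiquitin-specific proteases 3 of 23 rose and 5 fell, beside 15.7% and 17.9% of all genes, with a median of -0.01. USP18, which removes ISG15 from proteins and restrains interferon signalling, stood at 4.33, 4.45, 4.58 and 4.32 in control and 6.09, 6.42, 5.51 and 6.17 in Salmonella libraries (chromosome 5, 70183321 to 70227990). No values overlapped, the rise was 1.62 ± 0.23 (SE, adjusted p = 0.000111), and all controls lay below the background. USP15 rose from 6.92, 7.51, 8.32 and 7.70 to 8.60, 8.55, 8.35 and 8.60 (chromosome 5, 26964380 to 27082549). The Salmonella values lay close together above the highest control, and the difference was 0.91 ± 0.25 (SE, adjusted p = 0.0123). USP32 was called higher as well (0.58 ± 0.17 SE, adjusted p = 0.0183), with overlapping groups and all means below the background. The call of USP32 ended without Salmonella replicate 3 or control replicate 2, 3 or 4 (adjusted p from 0.0503 up to 0.0572).

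USP24 and USP7, the latter known for its control of MDM2 and p53, were the falls with the smallest p. USP24 had 10.43, 9.97, 9.87 and 9.87 in control and 8.29, 8.84, 8.63 and 8.80 in Salmonella libraries (chromosome 6, 157220521 to 157385329). The 2 groups lay more than 1 unit apart and differed by -1.39 ± 0.18 (SE, adjusted p = 3.82e-05). USP7 had 8.68, 8.61, 8.42 and 8.46 against 7.41, 7.52, 7.31 and 7.71 (chromosome 3, 33754357 to 33810480). All Salmonella values were lower, with a difference of -1.05 ± 0.17 (SE, adjusted p = 0.000262). USP13 fell from 6.73, 6.57, 6.55 and 6.63 to 5.51, 5.56, 6.24 and 4.82 (chromosome 13, 117700080 to 117826951), a difference of -1.08 ± 0.27 (SE, adjusted p = 0.00665) with Salmonella replicate 4 the lowest. USP46 (-0.78 ± 0.22 SE, adjusted p = 0.0116; chromosome 8, 39518155 to 39581990) and USP45 (-0.60 ± 0.16 SE, adjusted p = 0.00826) fell too, and their Salmonella means lay below the background. For USP45 the control mean of 5.18 and the sponge plus Salmonella mean of 4.91 lay below it as well.

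**Figure D3:**
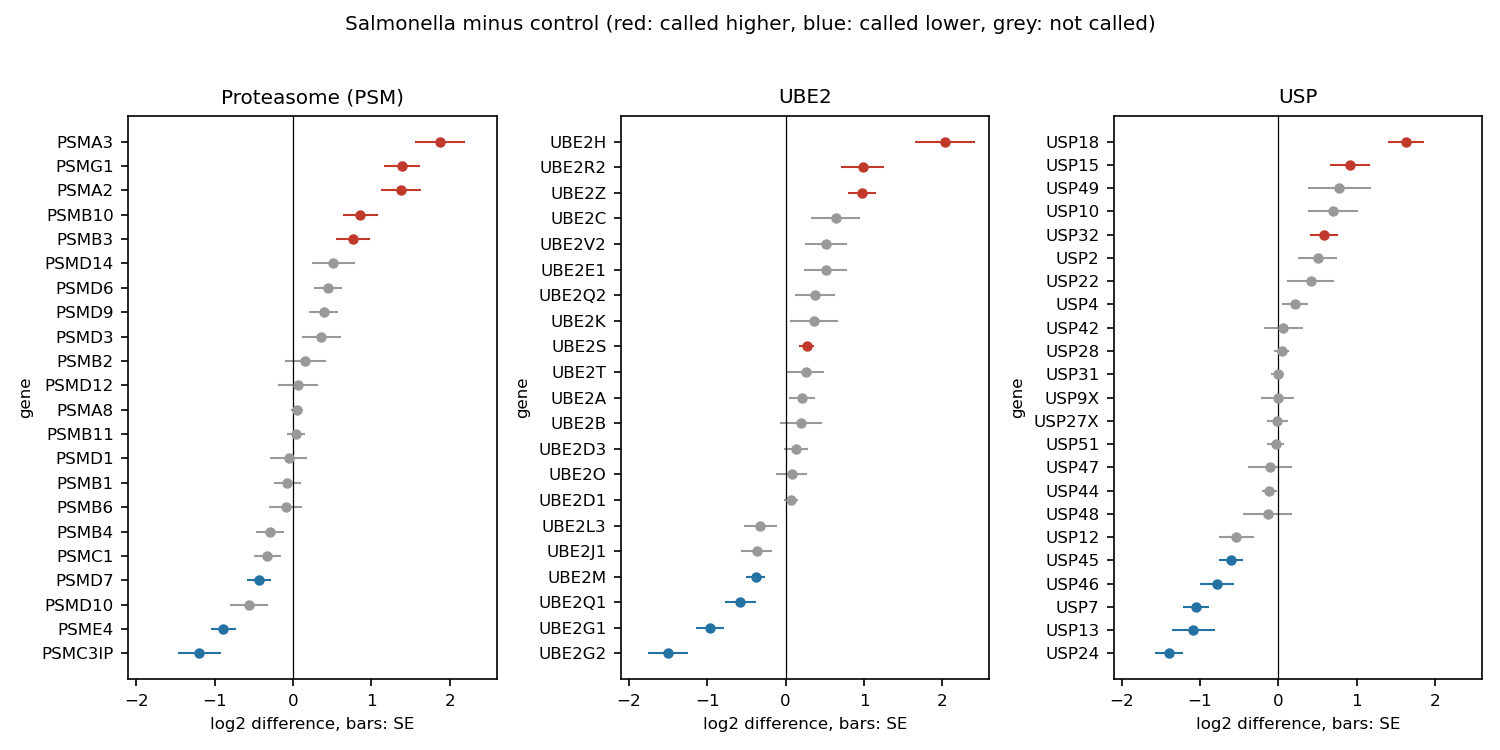
Points are the log2 differences between Salmonella and control libraries for the PSM, UBE2 and USP symbols, with standard errors as bars, in red where called higher, blue where called lower and grey where not called. Each family holds both directions, from -1.51 for UBE2G2 to 2.03 for UBE2H.

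Other genes of the pathway, counted by list, also split, and those named were chosen after their values were seen. The counts of these lists stand beside 15.7% of all genes higher and 17.9% lower. Of 17 measured proteasome partners of 34 listed, 5 were higher and 6 lower. POMP, the chaperone that finishes the 20S core, rose from 9.87 ± 0.31 to 11.88 ± 0.06 (SD, n = 4, limma adjusted p = 1.11e-05), which is 4.01-fold. AKIRIN2, which brings proteasomes into the nucleus, rose by 1.35 ± 0.18 (SE, adjusted p = 5.7e-05), and the shuttle factor gene UBQLN2 by 2.13 ± 0.31 (SE, adjusted p = 0.000136). VCP, the ATPase that pulls ubiquitin-tagged proteins out of membranes and complexes, was lower (-1.08 ± 0.23 SE, adjusted p = 0.00248), as was its cofactor gene NPLOC4 (-1.11 ± 0.21 SE, adjusted p = 0.000908). Of 6 E1 genes 2 were higher and 1 lower. UBA7, the E1 for ISG15, rose by 0.87 ± 0.16 (SE, adjusted p = 0.000988), and UBA6, which feeds UBE2Z, by 1.62 ± 0.53 (SE, adjusted p = 0.0271). The call of UBA6 ended without Salmonella replicate 1, 2 or 3 or control replicate 1 or 4 (adjusted p from 0.0552 up to 0.093) and with the 2 groups fitted alone (adjusted p = 0.0657). Of 14 other deubiquitinase genes 2 were higher and 3 lower, of 7 ubiquitin and ubiquitin-like genes 2 were higher and 2 lower, and of 4 other E2-like genes 2 were higher and 0 lower. Of 3 genes of SUMO proteases 2 were higher and 0 lower. Of 6 antigen processing genes only the aminopeptidase gene LAP3 was called, with 4.95 ± 0.49 (SE, adjusted p = 5.74e-06).

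Blood cell markers moved in the same libraries. Mean levels of 11 T cell markers ran from 8.97 to 9.29 in control, 7.52 to 8.18 in Salmonella and 8.51 to 9.17 in sponge plus Salmonella libraries. Mean levels of 5 B cell markers ran from 8.42 to 9.27, 6.62 to 6.69 and 7.83 to 8.23, and those of 6 monocyte markers from 6.71 to 7.45, 8.86 to 9.13 and 7.99 to 8.64. In control 2 T cell markers, CD3D among them, and 2 monocyte markers had means below the background. In Salmonella libraries 2 T cell markers, again with CD3D, and 1 B cell marker did. With Salmonella 10 of 11 T cell and 5 of 5 B cell markers were lower, and 5 of 6 monocyte markers were higher. Of 10 platelet markers listed 7 were measured and 5 of these were higher, and of 4 measured red cell markers 1 was higher. In the same order of groups, mean levels of the red cell markers ran from 10.07 to 10.78, 10.99 to 11.60 and 9.07 to 11.12. Those of 9 neutrophil markers ran from 6.78 to 7.34, 6.79 to 7.95 and 6.21 to 6.86. Of 6 NK and cytotoxic markers 5 were lower, and of 9 neutrophil markers 2 were higher and 2 lower. Their part in the results above was not tested, and in bulk samples fewer cells of a type and less RNA per cell cannot be told apart.

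The second question was what the sponge changes in Salmonella-treated samples. PSMB4, PSMB10, USP18 and UBE2Z were lower with the sponge, and USP49, USP12, UBE2Q2 and PSME4 were higher. Of the 66 genes 18 were called (27.3%), 5 higher and 13 lower, against 25.0% of all genes, 11.9% higher and 13.2% lower. Values were separate for 17 genes (25.8%), against 23.8% of all genes, 9 of them higher and 8 lower, against 10.6% and 13.2%. These totals are near the background. The median difference of the 66 was -0.03, against -0.04 over all genes. With quantile normalization the split was 6 higher and 8 lower, and over all genes 925 and 971 against 888 and 985 in the main fit. The 13 calls lower depended on single libraries. There were 14 without sponge plus Salmonella replicate 1, 6 without its replicate 2 or 3 and 7 without its replicate 4. Without Salmonella replicates 1 to 4 in turn there were 13, 5, 6 and 7. In these fits the calls lower over all genes also varied, from 719 to 1082.

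Among the PSM genes 7 of 22 were lower with the sponge and 1 was higher, where 13.2% of all genes were lower and 11.9% higher. Their median difference was -0.23, against -0.04 over all genes, and 6 of the 7 calls lower ended under at least 1 alternative, given with each gene. The lower ones included 3 of the 5 ordinary beta ring genes. PSMB4 had 11.07, 11.33, 11.30 and 11.55 in Salmonella and 11.04, 10.34, 10.32 and 10.70 in sponge plus Salmonella libraries (chromosome 4, 97835544 to 97837909). The groups did not overlap, and the difference was -0.72 ± 0.18 (SE, adjusted p = 0.0104). PSMB6 had 11.66, 12.34, 12.03 and 11.93 against 11.61, 11.17, 10.92 and 11.34 (chromosome 12, 52096009 to 52098164). It was lower, with a difference of -0.73 ± 0.21 (SE, adjusted p = 0.0204), also with no overlap. The call of PSMB6 ended without sponge plus Salmonella replicate 3 or Salmonella replicate 2 (adjusted p from 0.0632 up to 0.0659) and with quantile normalization (adjusted p = 0.12). PSMB3 was lower, with a difference of -0.68 ± 0.22 (SE, adjusted p = 0.034), with 11.91, 11.48, 11.04 and 11.28 in the sponge libraries, of which replicate 1 overlapped the lowest Salmonella library. The call of PSMB3 ended without sponge plus Salmonella replicate 2, 3 or 4 or Salmonella replicate 2, 3 or 4 (adjusted p from 0.0575 up to 0.0993) and with quantile normalization (adjusted p = 0.146). PSMB2 (-0.68 ± 0.26 SE, adjusted p = 0.071) was not called, and PSMB1 differed by 0.16 ± 0.17 (SE, adjusted p = 0.518). PSMB2 was called without sponge plus Salmonella replicate 1 or Salmonella replicate 1 (adjusted p from 0.0142 up to 0.0166).

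PSMB10 had 13.34, 12.28, 12.24 and 12.47 in the sponge libraries, a difference from Salmonella alone of -0.81 ± 0.22 (SE, adjusted p = 0.0168). Replicate 1 of the sponge group lay within the Salmonella range and the other 3 below it. The call of PSMB10 ended without sponge plus Salmonella replicate 2 or 3 or Salmonella replicate 2 (adjusted p from 0.0501 up to 0.0543) and with quantile normalization (adjusted p = 0.0655). PSMB11 was not called (-0.15 ± 0.12 SE, adjusted p = 0.355). Of the 17 interferon-stimulated genes 16 were lower with the sponge and 0 higher.

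Other proteasome genes followed no single direction. PSMA2 was lower (-0.76 ± 0.25 SE, adjusted p = 0.0385), with sponge values of 8.27, 7.79, 7.09 and 7.41. The call of PSMA2 ended without sponge plus Salmonella replicate 2, 3 or 4 or Salmonella replicate 1, 2, 3 or 4 (adjusted p from 0.0536 up to 0.112). PSMA3 was not called (0.28 ± 0.32 SE, adjusted p = 0.539), nor was PSMG1 (0.58 ± 0.23 SE, adjusted p = 0.0788). PSMG1 was called without Salmonella replicate 1 (adjusted p = 0.0225) and without the variance trend (adjusted p = 0.0411). PSMD10, known as gankyrin, was lower, with a difference of -0.83 ± 0.24 (SE, adjusted p = 0.0213) (chromosome X, 88540261 to 88548593), and PSMD1, a scaffold of the cap, was lower too, at -0.71 ± 0.23 (SE, adjusted p = 0.0371) (chromosome 15, 131807594 to 131912194). The call of PSMD10 ended without sponge plus Salmonella replicate 2 or 4 or Salmonella replicate 2, 3 or 4 (adjusted p from 0.0564 up to 0.0666). The call of PSMD1 ended without sponge plus Salmonella replicate 2, 3 or 4 or Salmonella replicate 2 or 4 (adjusted p from 0.0634 up to 0.111) and with the 2 groups fitted alone (adjusted p = 0.062). PSME4 was the gene higher with the sponge, from 9.46, 9.09, 8.99 and 9.05 to 9.53, 9.64, 9.66 and 9.94. The groups did not overlap and differed by 0.55 ± 0.16 (SE, adjusted p = 0.0197). The call of PSME4 ended without sponge plus Salmonella replicate 4 or Salmonella replicate 3 or 4 (adjusted p from 0.0528 up to 0.0619).

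Of the 21 E2 genes 1 was higher and 4 lower, beside 11.9% and 13.2% of all genes. UBE2Z had 5.35, 5.80, 5.29 and 6.02 with Salmonella and 4.70, 4.68, 4.79 and 4.47 with the sponge. All sponge values were lower and below the background, with a difference of -0.95 ± 0.18 (SE, adjusted p = 0.00185). UBE2C, which starts ubiquitin chains for the anaphase-promoting complex, had 5.77, 6.33, 6.92 and 7.34 against 5.65, 5.34, 5.58 and 5.43 (chromosome 17, 48018403 to 48021542). It was lower, with a difference of -1.09 ± 0.32 (SE, adjusted p = 0.0222), and the Salmonella libraries were widely spread. The call of UBE2C ended without sponge plus Salmonella replicate 2 or 4 or Salmonella replicate 3 or 4 (adjusted p from 0.0518 up to 0.0704). UBE2Q2 was higher by 0.89 ± 0.25 (SE, adjusted p = 0.0204), at 9.19, 8.89, 9.38 and 9.24 against 8.96, 7.97, 8.26 and 7.97 (chromosome 7, 56084017 to 56144915), and Salmonella replicate 1 overlapped the sponge libraries. The call of UBE2Q2 ended without sponge plus Salmonella replicate 3 or Salmonella replicate 2 or 4 (adjusted p from 0.0555 up to 0.0635). UBE2L3, an E2 for HECT and RING-between-RING ligases, was lower (-0.63 ± 0.21 SE, adjusted p = 0.0395). UBE2D3, a broadly used E2, was lower too (-0.51 ± 0.16 SE, adjusted p = 0.0277). The call of UBE2L3 ended without sponge plus Salmonella replicate 1, 2 or 3 or Salmonella replicate 2 or 3 (adjusted p from 0.0622 up to 0.124) and with quantile normalization (adjusted p = 0.0629) and with the 2 groups fitted alone (adjusted p = 0.0733). The call of UBE2D3 ended without sponge plus Salmonella replicate 3 or 4 or Salmonella replicate 2, 3 or 4 (adjusted p from 0.0627 up to 0.075) and with quantile normalization (adjusted p = 0.259).

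Of the 23 USP genes 3 were higher and 2 lower, beside the same shares. USP49, which removes ubiquitin from histone H2B, had 9.52, 8.27, 7.85 and 8.13 with Salmonella and 9.85, 10.18, 10.71 and 10.35 with the sponge (chromosome 7, 36978291 to 37054027). All sponge values lay above the highest Salmonella library, replicate 1, and the difference of 1.83 ± 0.40 (SE, adjusted p = 0.00504) was the largest rise of the 66 genes. USP12 had 4.94, 4.27, 4.91 and 4.51 against 5.86, 6.04, 6.17 and 5.85 (chromosome 11, 4612274 to 4689791). It was higher in every sponge library, by 1.32 ± 0.22 (SE, adjusted p = 0.0011), and the Salmonella mean was below the background. USP44, another histone H2B protease, was higher by 0.50 ± 0.10 (SE, adjusted p = 0.00232) with no overlap (chromosome 5, 87864410 to 87890913), and all its means lay below the background. USP18 had sponge values of 5.38, 5.03, 4.41 and 4.68, below all 4 Salmonella libraries. The difference of -1.17 ± 0.23 (SE, adjusted p = 0.00274) was the deepest among the 66, and the sponge mean was below the background. USP4 was also lower (-0.61 ± 0.17 SE, adjusted p = 0.0168). The call of USP4 ended without Salmonella replicate 3 (adjusted p = 0.0529).

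**Figure D4:**
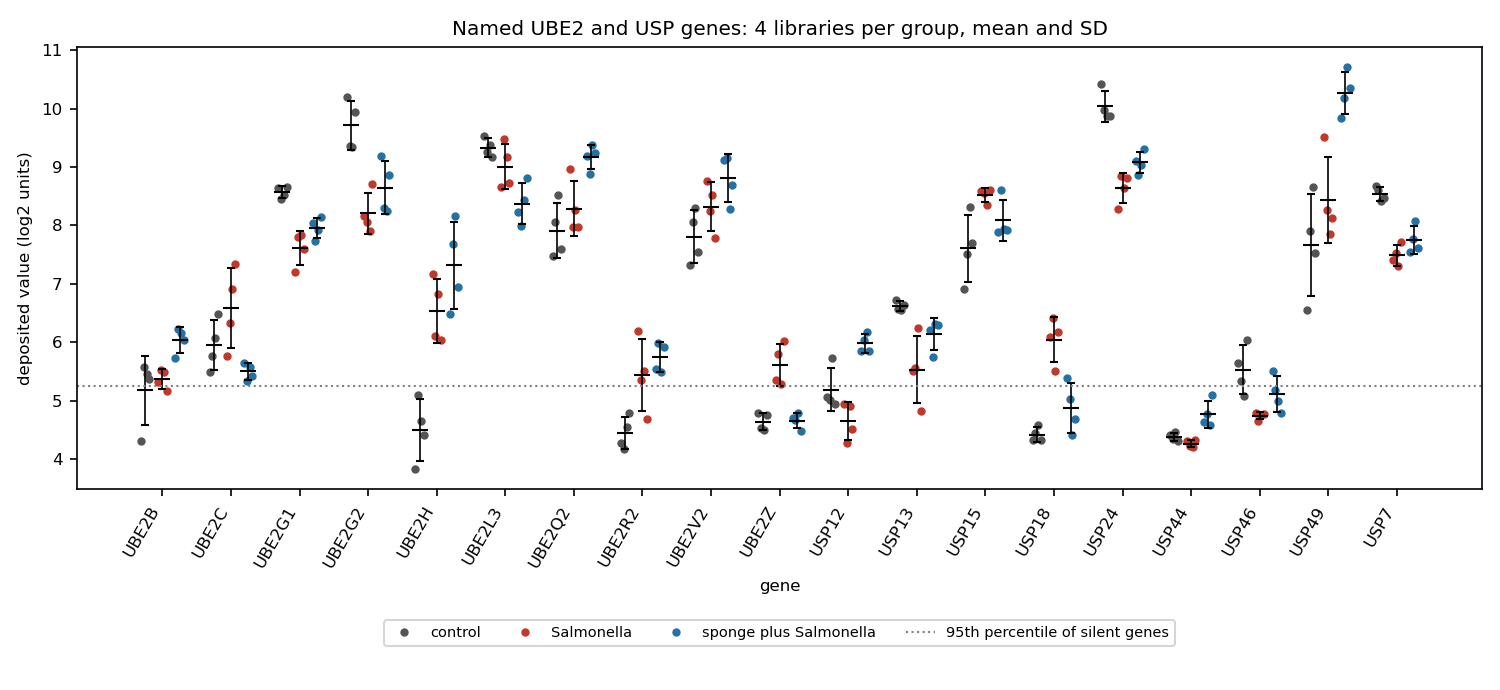
Points are the 4 libraries of each group for the UBE2 and USP genes that the naming rule covered, in log2 units, with mean and SD in black and the background as a dotted line. USP18 and UBE2Z are high in the Salmonella group, USP49 and USP12 are high in the sponge group, and UBE2G2, USP24 and USP7 are lower in both treated groups than in control.

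**Figure D5:**
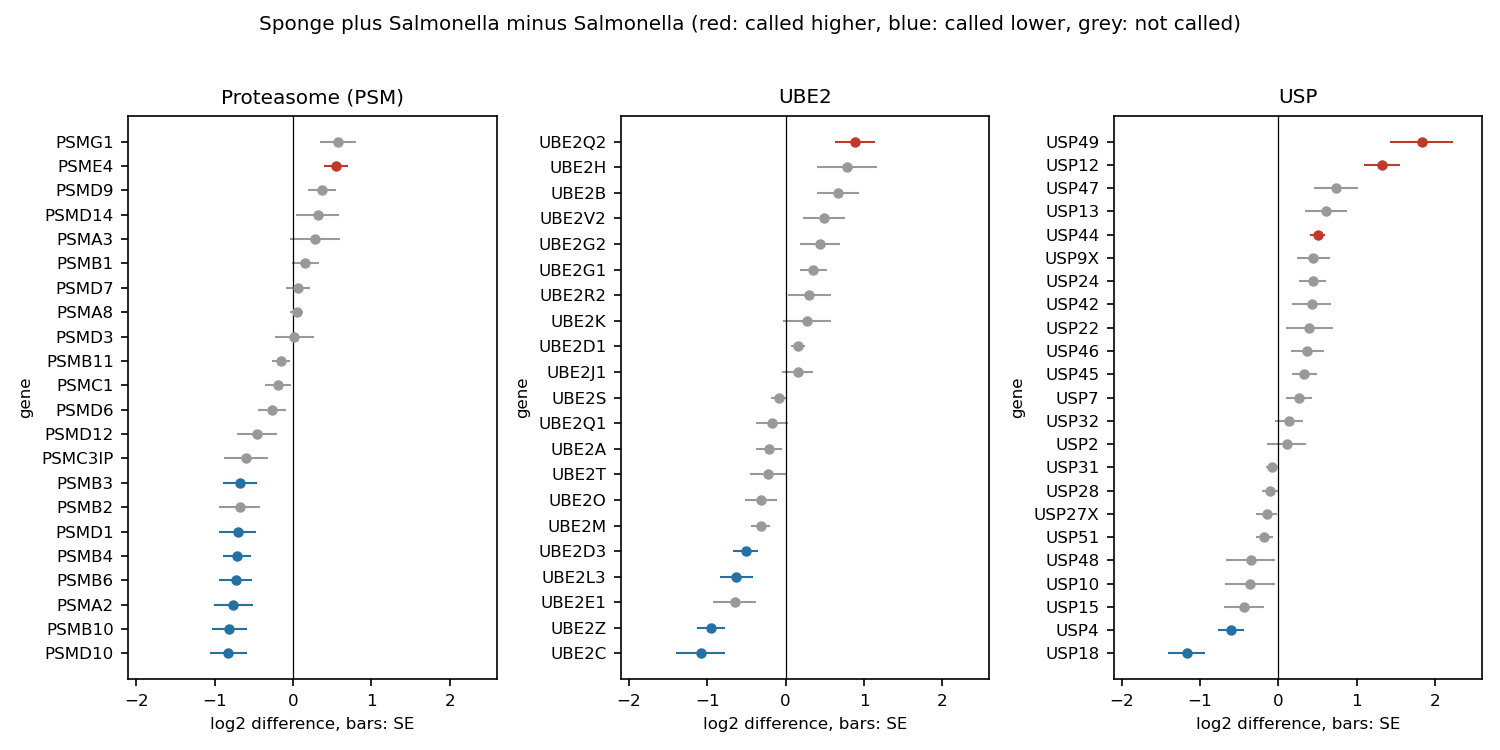
Points are the log2 differences between sponge plus Salmonella and Salmonella libraries with standard errors as bars, in red where called higher, blue where called lower and grey where not called. In the PSM panel 7 of the 8 called genes are on the left of 0, and the range over all 66 genes is -1.17 for USP18 to 1.83 for USP49.

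Over all genes 11.9% were higher with the sponge and 13.2% lower. In the other lists of the pathway, 1 of 17 proteasome partners was higher with the sponge and 5 lower. POMP was lower, with a difference of -1.12 ± 0.22 (SE, adjusted p = 0.00238) and AKIRIN2 at -0.99 ± 0.18 (SE, adjusted p = 0.00163), while VCP (0.16 ± 0.23 SE, adjusted p = 0.621) and NPLOC4 (-0.10 ± 0.21 SE, adjusted p = 0.728) were not called. Of 6 E1 genes 0 were higher and 2 lower, among them UBA7 (-0.66 ± 0.16 SE, adjusted p = 0.00929). LAP3 was the 1 of 6 antigen processing genes called, and it was lower (-2.64 ± 0.49 SE, adjusted p = 0.00197). Of 14 other deubiquitinase genes 2 were higher and 2 lower, with OTUD1 at 2.12 ± 0.28 (SE, adjusted p = 0.000259) from a Salmonella mean below the background. Among ubiquitin-like lists 1 of 7 ubiquitin and ubiquitin-like genes was higher and 1 lower, 1 of 4 other E2-like genes was higher and 1 lower, and 1 of 3 SUMO protease genes was higher and 2 lower. All 11 T cell and 5 B cell markers were higher with the sponge than with Salmonella alone, and 3 of 6 monocyte and 3 of 4 red cell markers were lower. Of 6 NK and cytotoxic markers 2 were higher and 0 lower, of 7 platelet markers 2 were higher and 1 lower, and of 9 neutrophil markers 0 were higher and 1 lower. Their part in the results was not tested.

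The last contrast sets samples given both agents against untreated ones. It shares its control libraries with the first comparison and its sponge libraries with the second. USP49, UBE2H, PSMA3 and PSMG1 were higher, and PSMC3IP, PSMD10, UBE2G2 and PSMB4 were lower. Of the 66 genes 27 were called (40.9%), 14 higher and 13 lower, against 40.9% of all genes, 17.9% higher and 23.0% lower. Values were separate for 29 (43.9%), against 39.7% of all genes, 16 of them higher and 13 lower, against 17.3% and 22.5%. The share called equals that of all genes, and over all genes the split was 1336 higher and 1721 lower, or 1062 and 2569 after median centring.

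UBE2H stood at 6.48, 7.68, 8.16 and 6.94 in the sponge libraries, all above every control, and the difference was 2.82 ± 0.38 (SE, adjusted p = 0.000128). USP49 differed from its control values of 6.56, 7.91, 8.66 and 7.52 by 2.61 ± 0.40 (SE, adjusted p = 0.000264). PSMA3 had sponge values of 8.74, 8.70, 7.97 and 7.60 and a difference of 2.16 ± 0.32 (SE, adjusted p = 0.000232). In each of these genes the sponge and control groups did not overlap. PSMG1 stood at 7.26, 7.24, 7.17 and 6.64, higher than control by 1.97 ± 0.23 (SE, adjusted p = 6.3e-05). UBE2R2 (1.29 ± 0.27 SE, adjusted p = 0.0021), UBE2Q2 (1.26 ± 0.25 SE, adjusted p = 0.00146) and UBE2V2 (2-fold, adjusted p = 0.00849; chromosome 4, 79621343 to 79652502), a catalytically inactive E2 variant, were higher as well. UBE2B, an E2 of DNA damage tolerance, was higher by 0.86 ± 0.27 (SE, adjusted p = 0.0198) (chromosome 2, 136652764 to 136667213). Its control mean of 5.18 lay just below the background. The call of UBE2B ended without sponge plus Salmonella replicate 2 or control replicate 1 (adjusted p from 0.0505 up to 0.0615).

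PSMC3IP was lowest with the sponge, at 4.93, 5.03, 4.54 and 4.59, a difference from control of -1.79 ± 0.28 (SE, adjusted p = 0.000264). These sponge values all lay below the background, so the size of the fall is uncertain. PSMD10 went from 9.24, 8.76, 8.78 and 9.09 in control to 8.07, 7.30, 7.53 and 7.43. The groups did not overlap and differed by -1.39 ± 0.24 (SE, adjusted p = 0.000545). PSMB4 differed by -1.01 ± 0.18 (SE, adjusted p = 0.000645) and PSMB6 by -0.83 ± 0.21 (SE, adjusted p = 0.00637), both beta ring genes, and the cap genes PSMD1 by -0.76 ± 0.23 (SE, adjusted p = 0.0169) and PSMC1 by -0.52 ± 0.17 (SE, adjusted p = 0.0239). The call of PSMD1 ended without sponge plus Salmonella replicate 2 or control replicate 1 (adjusted p from 0.0501 up to 0.0537). The call of PSMC1 ended without sponge plus Salmonella replicate 2, 3 or 4 or control replicate 1 or 4 (adjusted p from 0.0514 up to 0.0788) and with quantile normalization (adjusted p = 0.0874). UBE2G2 (-1.07 ± 0.26 SE, adjusted p = 0.00458), UBE2L3 (-0.96 ± 0.21 SE, adjusted p = 0.00262; chromosome 14, 50265102 to 50315409), USP24 (-0.96 ± 0.18 SE, adjusted p = 0.000819) and USP7 (-0.79 ± 0.17 SE, adjusted p = 0.00199) were lower than control with no overlap.

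PSMB10 (0.05 ± 0.22 SE, adjusted p = 0.885), PSMB11 (-0.12 ± 0.12 SE, adjusted p = 0.454), USP18 (0.45 ± 0.23 SE, adjusted p = 0.128) and PSME4 (-0.34 ± 0.16 SE, adjusted p = 0.0908) were not called between sponge plus Salmonella and control libraries. A p that misses the threshold does not show that their levels were equal. For USP18 sponge replicates 1, 2 and 4 were above all 4 controls and replicate 3 was not. PSME4 was called with median centring (adjusted p = 0.0215). Of the proteasome partners 4 of 17 were higher and 7 lower than control, beside 17.9% and 23.0% of all genes. POMP differed by 0.88 ± 0.22 (SE, adjusted p = 0.00525) and VCP by -0.91 ± 0.23 (SE, adjusted p = 0.00638).

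Other cell and interferon genes also differed between these libraries. Of 17 interferon-stimulated genes 15 were higher than control and 0 lower, while PSMB10 and USP18 were not called. Of 11 T cell markers 2 were higher and 5 lower, of 5 B cell markers 0 were higher and 3 lower, and of 6 NK and cytotoxic markers 0 were higher and 5 lower. Of 6 monocyte markers 4 were higher and 0 lower, of 9 neutrophil markers 1 was higher and 3 lower, of 7 platelet markers 2 were higher and 0 lower, and of 4 red cell markers 1 was higher and 0 lower. Their part in the results was not tested.

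The median SD of the 66 genes was 0.26 log2 units in control, 0.27 in Salmonella and 0.27 in sponge plus Salmonella libraries, against 0.19, 0.23 and 0.24 over all genes. USP49 had the largest SD in control (0.88) and in Salmonella libraries (0.74), and USP48 in the sponge libraries (0.75). E2 genes with close relatives in the family, such as UBE2D1 and UBE2D3 or UBE2A and UBE2B, could share reads of 50 bases, so their separate values are uncertain.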

How the data were processed

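Total RNA taken with a PAXgene kit was sequenced, per the labels' protocols and design text, from Illumina TruSeq libraries as single reads of 50 bases. The deposited table holds log2 values for 7480 gene symbols in 12 libraries, and the submitters' processing notes name Bowtie, R 3.4.2 and the build Sscrofa11.1. How reads were counted, scaled and filtered is not given in the sources used here. Base 2 was assumed for the logs, and the values carry no depth. The 66 genes, the lists and the tests were chosen with earlier results of these data known.

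A group-means model over all 12 libraries and 7480 genes was run with limma 3.58.1 (R 4.3.3) and a variance trend, and p-values were adjusted by Benjamini-Hochberg over all genes. The fit was tested on simulated data. Named genes were the immunoproteasome genes, USP18 and PSME4, the 8 largest called rises and 8 largest called falls of each comparison, and the called gene of smallest p in each role. PSMC3IP had been listed with the assembly genes and was moved out. Coordinates are RefSeq gene spans on Sscrofa11.1. Alternatives were other variance models, median centring, quantile normalization, a filter at the background, fits of 2 groups, a replicate block and leaving out each library.

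Replicate numbers of the titles were checked for pairing by correlating deviations from group means, and 2 of 12 same-numbered pairs exceeded 0.1 (range -0.36 to 0.38), so the numbers were not taken as pairs.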

Additional observations from a re-analysis of the deposited data

Results flagged for a closer look

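Groups of 4 values were examined for a highest or lowest library set far from the other 3, and 13 of 198 (6.57%) were marked, where chance marks about 1 in 20. PSMG1 was marked in all 3 groups, with control replicate 1 low at 4.93 (others 5.15 to 5.18), Salmonella replicate 1 high at 7.03 (others 6.27 to 6.39) and sponge plus Salmonella replicate 4 low at 6.65 (others 7.17 to 7.26). Salmonella replicate 1 was also the low library for PSMB3 at 11.79 (others 12.18 to 12.26) and PSMD10 at 7.69 (others 8.58 to 8.74), and Salmonella replicate 2 was low for USP9X at 5.12 (others 5.50 to 5.55). Control replicate 1 was low for UBE2B at 4.30 (others 5.38 to 5.57) and high for USP32 at 4.79 (others 4.32), USP51 at 4.69 (others 4.42 to 4.46) and UBE2D1 at 4.40 (others 4.36). The marked value of UBE2B and all controls of the last 3 genes lay below the background. Control replicate 2 was low for PSMC3IP at 5.76 (others 6.78 to 6.89), control replicate 3 was high for USP12 at 5.74 (others 4.94 to 5.07), and sponge plus Salmonella replicate 2 was high for USP15 at 8.61 (others 7.88 to 7.94).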

How the results depend on the processing

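Of 57 named gene results, 44 kept their side of the threshold under every alternative run and 13 changed call under at least 1. The sign turned in 3 uncalled results and in 0 called ones, so 41 kept both call and direction. PSMB10 between sponge plus Salmonella and control was -0.078 with median centring and -0.21 to 0.16 with 1 library left out, PSMB11 between Salmonella and control was -0.0495 with median centring and -0.0021 to 0.0828 with 1 left out, and PSMB11 between sponge plus Salmonella and control was -0.19 to 0.0105 with 1 left out. Leaving out 1 library gave 10 to 15 genes higher and 9 to 12 lower with Salmonella against control, 4 to 6 higher and 5 to 14 lower with sponge plus Salmonella against Salmonella, and 12 to 15 higher and 11 to 14 lower against control. Immunoproteasome calls ranged from 0 to 1 between sponge plus Salmonella and Salmonella, were 1 in every such fit between Salmonella and control, and 0 against control. Over all genes the leave-one-out counts were 917 to 1166 higher and 1074 to 1283 lower, 606 to 931 higher and 719 to 1082 lower, and 1113 to 1291 higher and 1328 to 1668 lower in the same order. Testing only the 3690 genes with a mean above the background, 48 of them among the 66, left 7 genes higher with Salmonella in place of 12, since 7 of those 12 passed the filter. Of the 48 genes 10 were lower in that fit, and of the 3690 genes 908 were higher and 1007 lower. Under that filter 527 of the 3690 genes were higher and 737 lower with sponge plus Salmonella against Salmonella, and 768 and 1153 against control. Without it the counts were 888 and 985, and 1336 and 1721, of 7480 genes. Among the 48 genes 4 were higher and 11 lower against Salmonella, and 10 and 13 against control. Quantile normalization gave 8 genes lower in place of 13 and 0 immunoproteasome calls between sponge plus Salmonella and Salmonella, and the cause was not tested. With the replicate number as a block the counts were 12 higher and 9 lower with Salmonella, 5 higher and 11 lower with the sponge against Salmonella, and 14 higher and 13 lower against control, and 2 of 12 pairs correlated best with their own number. The gene passages above leave the block out. It ended the Salmonella calls of PSMD7, UBE2M, UBE2Q1 and UBE2S (limma adjusted p from 0.0584 up to 0.0737) and added USP10 (0.0379). Against Salmonella it ended the calls of PSMA2 (0.0651) and UBE2L3 (0.0703). Against control it ended the call of USP22 (0.0686) and added UBE2D1 (0.0358). Differences of genes near the background and the unknown depth limit every fold given.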

Other observations

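Genes that rose with Salmonella had lower control levels than genes that fell, among the 66 and in the whole table alike. The median control level was 4.88 log2 units for the 12 called higher and 8.56 for the 12 called lower, against 5.43 and 7.38 over all genes called higher and lower. Between sponge plus Salmonella and control libraries the medians were 5.16 for the 14 called higher and 9.33 for the 13 called lower, against 4.63 and 7.05 over all genes. These are descriptions, and the control values enter both the level and the difference.

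Further genes outside the 66 moved by more than 1 log2 unit within the same pathway lists and are given as values. SUMO2 rose by 2.37 ± 0.68 (SE, adjusted p = 0.0148) with Salmonella and differed by 4.47 ± 0.68 (SE, adjusted p = 0.00026) between sponge plus Salmonella and control. Its control values of 4.11, 5.41, 7.25 and 4.36 were widely spread and overlapped the Salmonella values of 9.84, 7.09, 7.31 and 6.40. ATG12, an autophagy conjugation gene, fell by 1.21 ± 0.25 (SE, adjusted p = 0.00183) with Salmonella. ATG3, the E2-like enzyme of autophagy, rose by 1.41 ± 0.24 (SE, adjusted p = 0.000412) and was lower with the sponge by -1.49 ± 0.24 (SE, adjusted p = 0.000721). The call of SUMO2 ended without control replicate 1 (adjusted p = 0.0522) and with the 2 groups fitted alone (adjusted p = 0.0519).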
